A study of Salmo salar with 30 samples.

Results

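Metalloproteinase inhibitor 2 was represented by probes C211R161 and C001R030, chosen by name from a list of probes that differed between rearing environments in these same juveniles. They are 2 of the 21136 probes retained here, and both were measured on all 30 arrays. The series compared heads of Atlantic salmon (Salmo salar) juveniles reared in an enriched environment, with gravel, and in an unenriched environment, without it. There were 5 juveniles per environment from every family, 3 families in all (X11, X22 and X35). X11 came from a wild dam and a wild sire, and X22 and X35 from wild dams and farmed sires. All juveniles were placed in their environment as embryos and sampled when fry emerge from gravel, and each family had a single tank per environment. Effects of the tank therefore cannot be told apart from those of family and environment, and p-values measure the spread between juveniles.

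Tissue inhibitors of metalloproteinases are secreted proteins that bind and block matrix metalloproteinases, the enzymes that cut collagen and other parts of the extracellular matrix. In mammals, metalloproteinase inhibitor 2 is also known to help membrane-bound enzymes activate the proenzyme of matrix metalloproteinase 2 (72 kDa type IV collagenase, gelatinase A). The matrix is remodelled by these enzymes as cartilage, bone and vessels grow. The salmon RefSeq gene table (assembly Ssal_v3.1) names 2 such genes, timp2a and timp2, and the probes could not be assigned to either of them here.

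Each head was labelled with Cy5 and hybridised with a Cy3-labelled pool of all heads, so values are log2 ratios of a juvenile over that pool, with 0 meaning equal to the pool. Between 48% and 53.7% of spots per array exceeded the Cy3 detection limit (mean background plus 2 SD), and between 28.2% and 42.9% exceeded the Cy5 limit. Cy5 signals had a median of 2581 and a highest value of 6513 at C211R161, and a median of 1672 and a highest value of 3833 at C001R030, with no saturated spot. C211R161 was above the Cy5 limit on 29 arrays and C001R030 on 27. A whole head holds many tissues, and fewer cells of a type cannot be told apart from less RNA per cell. Of the lists of tissue markers, the retinal opsin and myelin probes, 2 of 4 lens, 5 of 6 neuronal, 2 of 3 heart, 2 of 4 connective tissue and 2 of 3 haemoglobin probes were above the Cy5 limit on all 30 arrays.

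Both probes were higher in enriched than in unenriched juveniles on average. C211R161 averaged 0.46 ± 0.52 in enriched and -0.64 ± 0.63 in unenriched juveniles (log2 ratio, SD, n = 15 each), and C001R030 averaged 0.41 ± 0.40 in enriched and -0.66 ± 0.87 in unenriched juveniles. The differences were 1.09 (SE 0.20) and 1.07 (SE 0.24) on the log2 scale, which is 2.13-fold and 2.10-fold. The ranges overlapped: C211R161 ran from -0.81 to 0.89 (median 0.66) in enriched and from -1.95 to 0.80 (median -0.52) in unenriched juveniles. C001R030 ran from -0.50 to 0.84 (median 0.49) in enriched and from -3.20 to 0.54 (median -0.61) in unenriched juveniles. Because the probes were chosen on this contrast, these values are a description and no test is given. Over all retained probes, 0.222% were called higher in enriched juveniles at a false discovery rate of 5%, from which nothing is read about the pair.

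**Figure D1:**
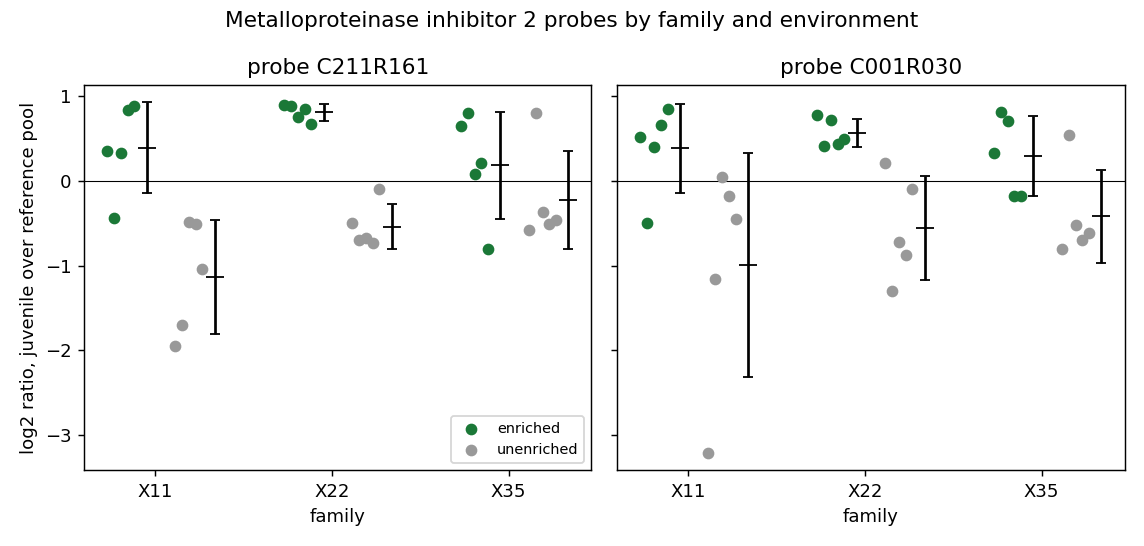
Log2 ratio of each juvenile over the reference pool (vertical axis) for C211R161 and C001R030 by family (horizontal axis), enriched in green and unenriched in grey, with the mean and SD of 5 juveniles in black beside each group. The 5 enriched X22 juveniles lie close together at C211R161 (SD 0.10), and 1 unenriched X35 juvenile lies above the other 4 at both probes.

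In X11, C211R161 was 0.35, -0.44, 0.32, 0.84 and 0.88 in enriched juveniles 1 to 5, against -1.95, -1.70, -0.48, -0.51 and -1.04 in unenriched juveniles 1 to 5. The groups did not overlap, and enriched juvenile 2 and unenriched juvenile 3 lay closest together. Such separation held for 5.64% of all probes in X11. C001R030 was 0.52, -0.50, 0.39, 0.66 and 0.84 in the enriched X11 juveniles, against -3.20, -1.16, 0.04, -0.18 and -0.46 in the unenriched ones. Here the groups overlapped through enriched juvenile 2, which was also the lowest enriched X11 juvenile at C211R161. The X11 differences were 1.52 (SE 0.33) for C211R161 and 1.37 (SE 0.53) for C001R030.

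Unenriched X11 juveniles 1 and 2, the lowest of X11 at both probes, shared a slide that held no enriched X11 juvenile. The Cy5 signal of C001R030 was under the detection limit in both of them, and that of C211R161 in juvenile 1. Without both, the X11 difference was 1.07 for C211R161 and 0.58 for C001R030. Without juvenile 1 alone, the C001R030 difference was 0.82. Within the only slide with both environments of X11, the difference was 1.03 for C211R161 and 0.71 for C001R030 (1 enriched and 3 unenriched juveniles). Enriched X11 juvenile 2 lay on another slide, which held enriched juveniles only, with enriched X22 juvenile 4 and enriched X35 juveniles 4 and 5. The 3 enriched juveniles below 0 at C001R030 were all on it, as were the 2 below 0 at C211R161. Enriched X22 juvenile 4 was above 0 at both probes, at 0.85 for C211R161 and 0.43 for C001R030. The part of the slides in these values was not tested further.

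In X22, C211R161 was 0.89, 0.88, 0.75, 0.85 and 0.66 in enriched juveniles 1 to 5, against -0.50, -0.70, -0.68, -0.74 and -0.09 in unenriched juveniles 1 to 5. C001R030 was 0.77, 0.41, 0.71, 0.43 and 0.49 in enriched X22 juveniles, against 0.21, -1.30, -0.72, -0.88 and -0.10 in unenriched ones. The environments did not overlap at either probe, as for 0.942% of all probes in X22. C211R161 was the only probe called in X22, on the contrast by which it was listed, so nothing is read from the call. That call was lost under some of the alternatives given below. The differences were 1.35 (SE 0.16) for C211R161 and 1.12 (SE 0.26) for C001R030. Both slides with the environments side by side gave similar values, 1.49 and 1.25 for C211R161 and 1.14 and 1.28 for C001R030.

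In X35, C211R161 was 0.64, 0.79, 0.07, 0.20 and -0.81 in enriched juveniles 1 to 5, against -0.58, 0.80, -0.37, -0.52 and -0.47 in unenriched juveniles 1 to 5. C001R030 was 0.33, 0.81, 0.71, -0.18 and -0.18 in enriched X35 juveniles, against -0.80, 0.54, -0.53, -0.70 and -0.61 in unenriched ones. Both pairs of groups overlapped, and unenriched juvenile 2 was the highest unenriched X35 juvenile at both probes. The differences were 0.41 (SE 0.34) for C211R161 and 0.72 (SE 0.29) for C001R030. Without unenriched juvenile 2 they were 0.66 and 0.96, and without enriched juvenile 2 they were 0.26 and 0.59. The Cy5 signal of C001R030 was under the detection limit in enriched juvenile 4, and without that juvenile the C001R030 difference was 0.84. Within the slide that held both environments of X35 the differences at C211R161 and C001R030 were 0.97 and 1.23 (3 enriched and 1 unenriched juvenile).

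Tissue markers also differed between the environments. They were named from probes listed for these same juveniles, mostly in X11, so their calls are not independent evidence of a difference. Over all families, 2 of the 3 heart, 1 of the 4 connective tissue and 1 of the 4 lens probes were called lower in enriched juveniles and none higher (0.393% of all probes were called lower). The summed log2 ratio of the heart probes ran from -9.48 to -4.66 in enriched and from -9.33 to 2.69 in unenriched juveniles. In X11, 4 of 4 connective tissue probes (decorin, lumican, collagen alpha-1 chain and periostin-like), 2 of 3 heart, 2 of 4 lens and 1 of 1 retinal probes were called lower and none of these higher. The 4 connective tissue probes belong to a wider list of 27 matrix protein probes, given below. Of those 27, 8 were called higher and 11 lower in X11, so the 4 do not stand for matrix probes in general. Of the neuronal probes, 3 of 6 were called higher and 2 lower. Over all probes, 6.03% were called higher and 6.83% lower in X11. Of the 3 haemoglobin probes, 1 was called higher in X11, and the myelin probe was not called. The sums in X11 ran from -1.47 to 0.22 in enriched and from 1.94 to 3.95 in unenriched juveniles for connective tissue, and from -9.05 to -7.46 in enriched and from -7.55 to 2.16 in unenriched juveniles for heart. Without the 2 unenriched X11 juveniles on the shared slide, no marker was called in X11, when 4 probes in all were called there. The median connective tissue difference was then -0.91, against -0.87 with them. No marker was called in X22 or X35 (0.00473% and 0% of all probes were called there). With so few calls over all probes, nothing is read from these absences about the markers. The part of these tissues in the difference at the inhibitor probes was not tested.

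Family levels did not differ detectably at either probe. Averaged over both environments, C211R161 stood at -0.37 in X11, -0.02 in X35 and 0.13 in X22, and C001R030 at -0.30 in X11, -0.06 in X35 and 0.00 in X22. The limma F-test of family gave an adjusted p of 0.161 for C211R161 and 0.653 for C001R030, while 27.2% of all probes were called. The largest pairwise contrast was X11 minus X22 at C211R161, -0.51 (SE 0.22, limma adjusted p = 0.157), with 7.08% of all probes called in that contrast. Neighbours in this order differed by less than the spread between juveniles.

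At C211R161 the environment difference was 1.52 for X11, 1.35 for X22 and 0.41 for X35, and X11 fell below X22, at 1.07, without the 2 unenriched juveniles on the shared slide. The limma F-test of family by environment gave an adjusted p of 0.288 for C211R161, and an adjusted p of 0.774 for C001R030, with 0.0615% of all probes called. These within-family differences were also among the values by which C211R161 was listed, so this is not independent of the choice.

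Both probes tended to deviate together over the 30 juveniles. After the mean of each of the 6 groups was removed, which also removes the contrast used to choose them, the deviations of C211R161 and C001R030 correlated with Pearson r = 0.78 (permutation p = 2e-05, adjusted 0.0001) and Spearman rho = 0.86 (permutation p = 3e-05, adjusted 0.00015) over 30 juveniles, two-sided with 100000 shuffles within groups and adjusted over 5 relations. The deviations had the same sign in 23 of 30 juveniles. The shuffles ran within groups but across slides, so whatever the arrays of a slide share enters this relation. Unenriched X11 juveniles 1 and 2, on their shared slide, lay below their group mean at both probes. The rest of that group, on another slide, lay above it at both. The lowest r over the alternatives given below was 0.56, with slide as a fixed block. The highest permutation p over those alternatives was 0.00373. Without the 2 juveniles farthest from the median of C211R161, r was 0.79 and rho 0.83. Within families, over 10 juveniles each, X11 had an r of 0.87 (permutation p = 0.00011), X22 of 0.62 (permutation p = 0.193) and X35 of 0.81 (permutation p = 0.0225), so the relation did not pass the test in X22. The paper reports that some X35 juveniles of both environments clustered apart from the rest of their family. The shuffles within the X35 groups did not keep that split apart.

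**Figure D2:**
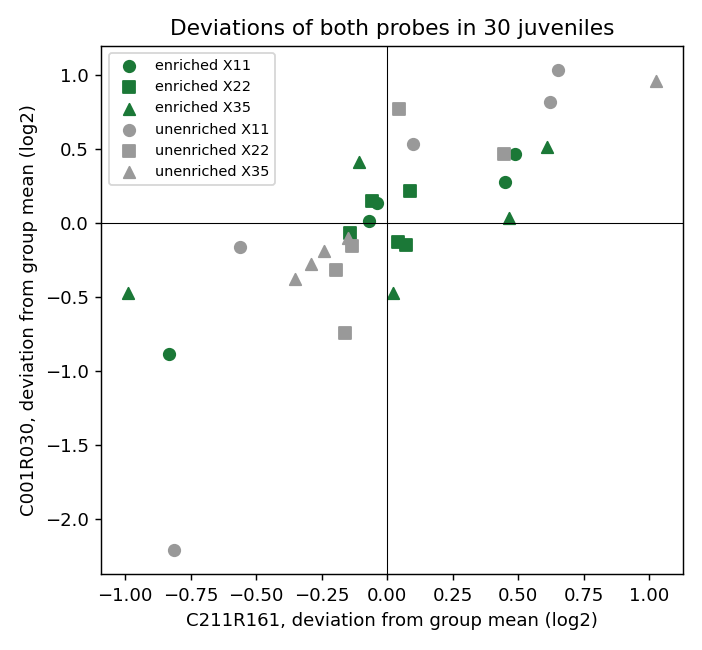
Deviation of each juvenile from the mean of its family and environment at C211R161 (horizontal axis) and C001R030 (vertical axis), in log2 units, with enriched in green, unenriched in grey and a symbol per family. The points rise together (r = 0.78), and the lowest one is unenriched X11 juvenile 1 at -0.81 and -2.21.

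Within environments, with no mean removed, r was 0.77 over the 15 enriched juveniles (rho = 0.66, permutation p = 0.00225 and 0.00924, adjusted 0.00225 and 0.00924) and 0.81 over the 15 unenriched ones (rho = 0.78, permutation p = 0.00057 and 0.00099, adjusted 0.000712 and 0.00247). These shuffles ran over all juveniles of an environment, across families and slides, so differences between family means and between slides enter these relations. Without the 2 juveniles farthest from the median of C211R161, r fell to 0.45 in enriched juveniles (permutation p = 0.116) and to 0.55 in unenriched ones (permutation p = 0.0473). The enriched relation thus did not pass the test without them. Since this removal narrows the range of C211R161 and leaves 13 juveniles, it cannot tell whether the relation rested on those left out. Both probes lie on the same array and share its labelling and normalisation.

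As a description across probes, which are not independent replicates, C001R030 ranked 1 of 18625 probes by r with C211R161, and C211R161 ranked 1 of 18625 by r with C001R030. The next probe reached 0.72 for C211R161 and 0.76 for C001R030. The quartiles of r over all probes were -0.20 and 0.19 for C211R161 and -0.16 and 0.16 for C001R030.

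**Figure D3:**
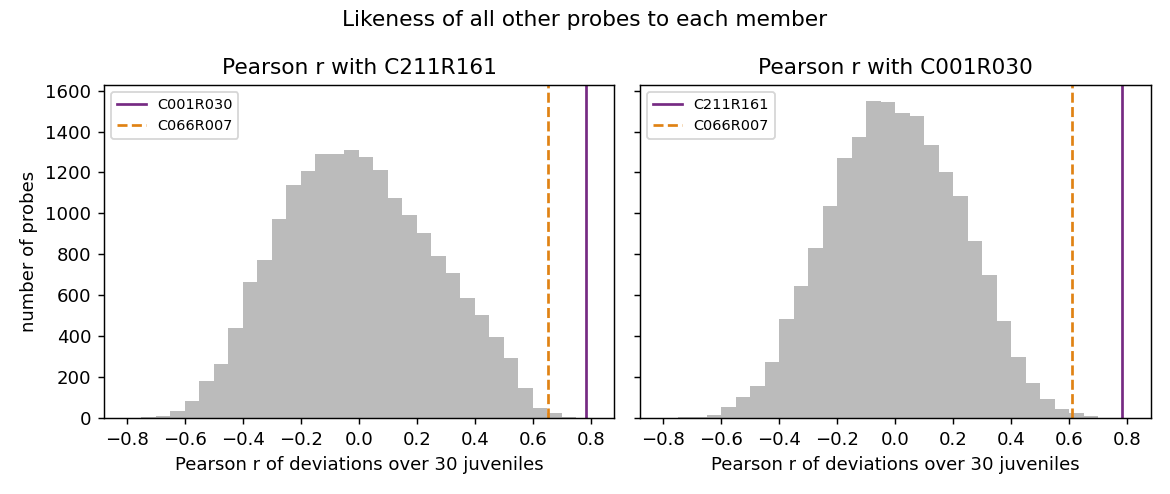
Number of probes (vertical axis) by Pearson r of deviations over 30 juveniles (horizontal axis) with C211R161 on the left and C001R030 on the right. The solid line marks the other member (0.78) and the dashed line C066R007 (0.65 and 0.61), both in the upper tail.

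The 5 probes most like the mean of the pair had r from 0.68 to 0.77 and carried no name in the tables used here. The first was C074R127 (r = 0.77), which averaged -0.34 in enriched and -0.38 in unenriched juveniles (difference 0.04, limma adjusted p = 0.881). The second was C129R134 (r = 0.70), at -0.30 in enriched and -0.19 in unenriched juveniles (limma adjusted p = 0.838). None of the 5 was called for environment, against 0.615% of all probes.

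The third probe of the same name, C066R007, was listed from X11 alone, so its X11 values are a description. It was 0.56, 0.39, 0.63, 0.97 and 0.47 in enriched X11 juveniles 1 to 5, against -1.09, -0.72, -0.14, -0.37 and -0.41 in unenriched X11 juveniles 1 to 5. The groups did not overlap, as for 5.64% of all probes in X11. The difference was 1.15 (SE 0.19), or 0.91 without the unenriched pair on the shared slide. In X22 it averaged 0.31 ± 0.33 in enriched and 0.31 ± 0.09 in unenriched juveniles (SD, n = 5 each), a difference of -0.00073 (95% interval -0.39 to 0.39, limma adjusted p = 0.999). In X35 it averaged 0.13 ± 0.26 in enriched and -0.04 ± 0.48 in unenriched juveniles, a difference of 0.17 (95% interval -0.37 to 0.70, limma adjusted p = 0.978). Over all probes, 0.00473% were called in X22 and 0% in X35, with 10.1% and 5.08% at an unadjusted p under 0.05.

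**Figure D4:**
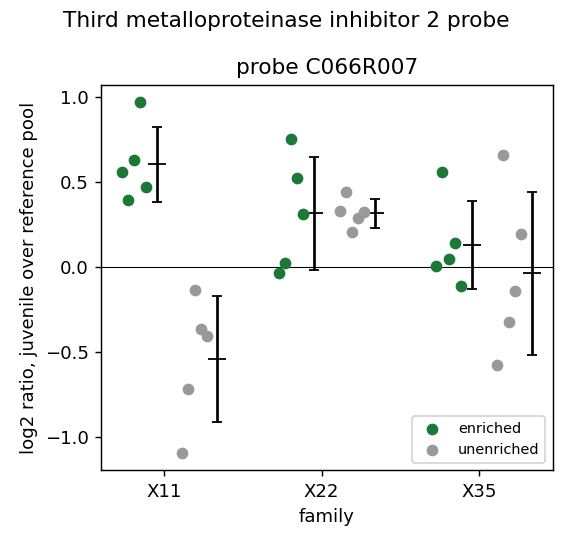
Log2 ratio of each juvenile over the reference pool (vertical axis) for C066R007 by family (horizontal axis), enriched in green and unenriched in grey, with mean and SD of 5 juveniles in black. The environments separate in X11, as for 5.64% of all probes there, and overlap in X22 and X35.

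Over all 30 juveniles together, C066R007 nevertheless tended to follow the pair within groups. Its deviations correlated with those of C211R161 (r = 0.65, rho = 0.53, permutation p = 0.00055 and 0.00666, adjusted 0.000712 and 0.00832) and of C001R030 (r = 0.61, rho = 0.52, permutation p = 0.00055 and 0.00417, adjusted 0.000712 and 0.00695) over 30 juveniles. Here too the shuffles ran within groups but across slides. These relations were not computed within each family. In enriched X22 juveniles 1 to 5, C066R007 deviated by -0.35, -0.29, 0.44, 0.21 and -0.0022. C211R161 deviated by 0.09, 0.07, -0.06, 0.04 and -0.14 in them, and C001R030 by 0.21, -0.15, 0.15, -0.13 and -0.07. The deviations of C066R007 and the pair thus did not rise together in that group. C066R007 ranked 29 and 30 of 18625 probes by r with C211R161 and C001R030. Whether its X11 difference was larger than those in X22 and X35 was not tested, since X11 chose it.

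The names of the other inhibitors and of the metalloproteinases came from probes listed for these juveniles, mostly in X11, and are not independent of X11. Of the 6 such probes besides the pair, 3 were called higher and 2 lower in enriched X11 juveniles (6.03% and 6.83% of all probes). None was called in X22 or X35 (0.00473% and 0% of all probes). All 5 X11 calls were lost without the 2 unenriched juveniles on the shared slide (0 of 6 called, median difference 0.63), when 4 probes in all were called in X11. With every juvenile, their median was 0.84 for X11, -0.08 for X22 and 0.16 for X35, against -0.01, -0.00 and 0.01 over all probes.

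The probe for metalloproteinase inhibitor 3-like, whose mammalian counterpart binds to the matrix, averaged 1.31 ± 0.26 in enriched and 0.52 ± 0.46 in unenriched X11 juveniles (limma adjusted p = 0.0378), with Cy5 above the limit on 5 of 5 enriched and 1 of 5 unenriched arrays. Among the enzymes, matrix metalloproteinase 2 averaged 1.16 ± 0.33 in enriched and 0.26 ± 0.42 in unenriched X11 juveniles (limma adjusted p = 0.0261). The 72 kDa type IV collagenase probe, an older name of that enzyme, averaged 1.68 ± 0.43 in enriched and 0.19 ± 1.25 in unenriched X11 juveniles (limma adjusted p = 0.0662), with Cy5 above the limit on 5 of 5 enriched and 2 of 5 unenriched arrays. Matrix metalloproteinase-23-like was lower, at -0.53 ± 0.36 in enriched and 0.33 ± 0.36 in unenriched X11 juveniles (limma adjusted p = 0.0258). Disintegrin and metalloproteinase domain-containing protein 33, a membrane-bound protease, was also called lower in enriched X11 juveniles (limma adjusted p = 0.0149), but its Cy5 signal was under the limit in every X11 juvenile with a log2 ratio, of both environments, so that call rests on dim signals and no fold is given. Since the names came mostly from X11, these X11 p-values are a description and no independent test. Without the 2 unenriched juveniles on the shared slide, limma adjusted p was 0.193 for inhibitor 3-like and 0.14 for matrix metalloproteinase 2. It was 0.247 for the collagenase, 0.147 for matrix metalloproteinase-23-like and 0.0724 for disintegrin and metalloproteinase domain-containing protein 33.

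**Figure D5:**
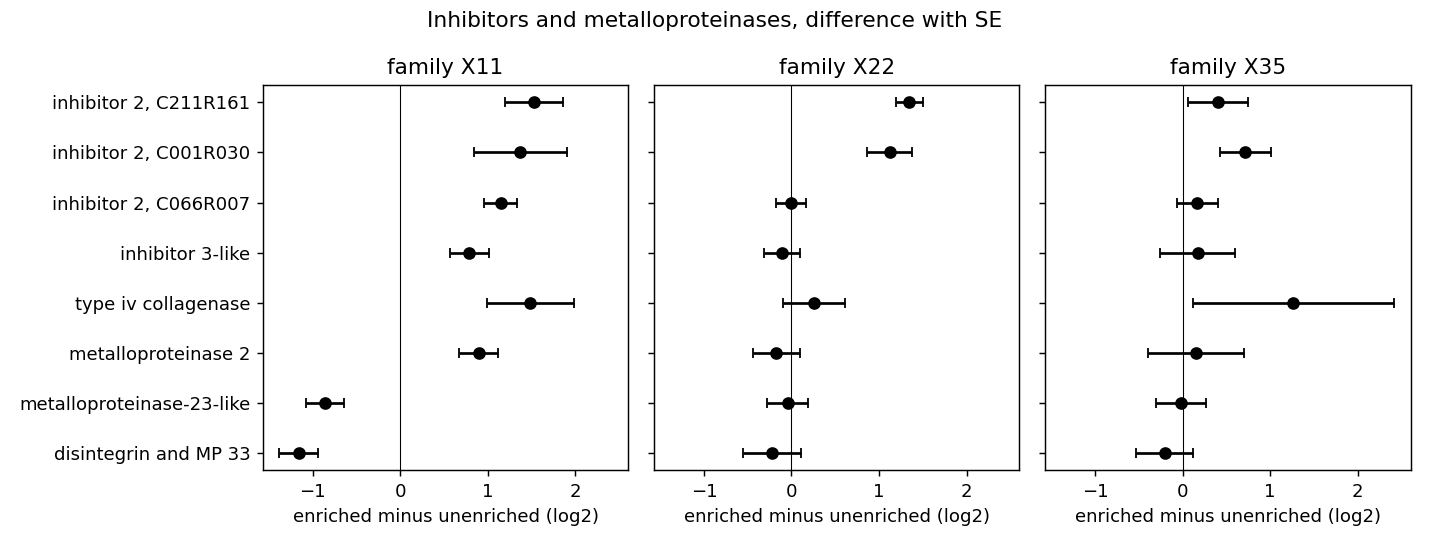
Enriched minus unenriched difference in log2 ratio with its SE (horizontal axis) for the 8 inhibitor and metalloproteinase probes (vertical axis), with a panel per family. In X11 the inhibitors lie above 0 and the last 2 enzymes below it, and in X22 the pair C211R161 and C001R030 lies at 1.35 and 1.12.

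Proteins of the matrix were followed with 27 probes, picked by name and also named from these juveniles. Whether the enzymes above cut them was not tested. In X11, 8 were called higher and 11 lower (6.03% and 6.83% of all probes), and none was called in X22 or X35 (0.00473% and 0% of all probes). Without the same 2 unenriched X11 juveniles, 0 of the 27 were called in X11, when 4 probes in all were called there. The median difference of the 27 was then -0.45, against -0.52 with them. Their correlation with the mean of the pair, as a description, ran from -0.57 to 0.45. The extremes were fibronectin-like (r = -0.57), a matrix adhesion glycoprotein, osteoblast specific factor (r = 0.45), biglycan (C210R044, r = 0.44 over 24 juveniles), a small proteoglycan, and hyaluronan and proteoglycan link protein 1 (r = 0.43). None of these 4 was called for environment over all families. Of the 27, 3 were called lower and none higher (0.393% and 0.222% of all probes), and they are named here after their values were seen. Collagen alpha-1 chain (C152R011) differed by -0.92 (SE 0.20, limma adjusted p = 0.0302), laminin subunit beta-2-like by -0.48 (SE 0.11, limma adjusted p = 0.0350) and matrilin-2 by -0.77 (SE 0.19, limma adjusted p = 0.0423). Since the 27 were named from environment comparisons of these same juveniles, these p-values are a description and no independent test. The collagen probe was measured in 27 juveniles, only 2 of them enriched X35 ones, so its families were not balanced between the environments.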

How the data were processed

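Heads of 30 juveniles were hybridised to 2-colour arrays on 8 slides. The slide of each array was inferred from a number in the name of its scan, since the sample labels give no slide. The deposited scanner files give intensity values per spot (Cy5 juvenile, Cy3 pool), and the authors also deposited a log2 ratio table, loess-normalised and imputed, with 21117 probes. That table served as an alternative. Here background-subtracted medians were loess-normalised within arrays (span 0.4, 5 iterations), spots with scanner flag 1 or 2 and spots under the Cy3 limit were removed, and probes missing on 8 or more arrays were dropped, with no imputation. Spots with flag 3 were kept, which concerns 2 values of the 72 kDa type IV collagenase probe in X35, and no spot of the inhibitor 2 probes was flagged. The lowest correlation with the authors' values was 0.997. No dye was swapped, so dye bias was not averaged out. Differences were fitted with limma 3.58.1 in R 4.3.3 with Benjamini-Hochberg adjustment over all probes, and the scripts were tested on simulated data. Alternatives covered the source of values, background, scaling, filters, slide, array weights, family, replicate number and each juvenile left out. The number of arrays limits precision. The members and lists were chosen with earlier results of these data known. Probes to be named in the text were the pair, the 8 inhibitor and metalloproteinase probes, the 5 most like the pair (at most 2 unnamed IDs printed), and up to 4 matrix probes by size of correlation. Named beyond this rule were the 4 connective tissue markers and the 3 matrix probes called over all families. Probe names came from the study's supplement.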

Additional observations from a re-analysis of the deposited data

Results flagged for a closer look

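Unenriched X35 juvenile 2 stood apart from its group at both probes. At C211R161 its log2 ratio was 0.80, against -0.37 in the nearest of the other 4, and the gap was 0.853 of the group's range. At C001R030 it was 0.54, against -0.53 in the nearest, a gap of 0.795 of the range. Chance flags about 1 in 20 groups, and 18 groups were examined. Both flags are the same juvenile at probes that deviate together, so they are not independent of each other. It was also the highest of its group at C066R007 (0.66), inhibitor 3-like (0.81), the collagenase (1.41) and matrix metalloproteinase 2 (1.37). It was not the highest at matrix metalloproteinase-23-like (-0.18) or at disintegrin and metalloproteinase domain-containing protein 33 (-0.05).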

How the results depend on the processing

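The environment differences of C211R161 and C001R030 were positive under every alternative run. Over all families, leaving out each juvenile gave 1.00 to 1.20 for C211R161 and 0.89 to 1.16 for C001R030. With normexp background correction the X22 difference of C211R161 was 0.96, and with slide as a fixed block, which equals the value within slide 7, the X35 difference of C001R030 was 1.23. The agreement r ran from 0.56, with slide as a fixed block, to 0.82 over the alternatives and from 0.76 to 0.81 with each juvenile left out. Tests of family and of family by environment passed the threshold for neither probe under any alternative. Among pairwise contrasts, X11 minus X22 at C211R161 passed it with array quality weights (-0.54, limma adjusted p = 0.0478). At C001R030, X11 minus X22 was 0.089 with spots dim in Cy3 or Cy5 removed and 0.089 without the slide 3 juveniles of X11, an alternative chosen after seeing the data. X11 minus X35 was 0.095 and 0.15 under the same 2 settings and -0.37 to 0.03 (0.0345) with each juvenile left out. X22 minus X35 was -0.0056 for C211R161 and -0.020 for C001R030 with normexp, and -0.030 to 0.19 for C001R030 with each juvenile left out. The X22 difference of C066R007 changed sign around 0, at 0.0014 with normexp, 0.0020 with slide as a random block, 0.036 with array weights and -0.11 to 0.087 with each juvenile left out. The causes were not tested.

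The count of probes called for environment over all families was 130, and it was 22 with normexp, 84 with no filter on dim spots, 20 with slide as a fixed block, 64 with slide as a random block, 370 with family as a block, 30 without the slide 3 juveniles and 61 to 295 with each juvenile left out. In X11 it was 2717, and 12 with slide as a fixed block, 4 without the slide 3 juveniles and 1230 to 3043 with each juvenile left out. In X22 it was 1 (C211R161), and 0 with normexp, scaling or no filter, with 1535, 1926 and 2195 probes at an unadjusted p under 0.05, and 0 to 3 with each juvenile left out. In X35 limma called 0 (1073 at an unadjusted p under 0.05), and 1 with array weights and 0 to 1 with each juvenile left out. The family count was 5749, and 3254 with both dim filters, 1106 with slide as a fixed block and 9122 with array weights. The count for family by environment was 13, and 2 with normexp, 20 with scaling, 63 with both dim filters, 400 with array weights, 1 without the slide 3 juveniles and 1 to 120 with each juvenile left out.

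Replicate numbers are shared by the groups, but same-numbered juveniles did not deviate together in the median (r 0.0264 over 15 pairs, against 0.00674 for other pairs). Single pairs ran from -0.107 to 0.523, 5 of them over 0.1. With the replicate number as a block, the differences were 1.09 for C211R161 and 1.07 for C001R030 over all families, the agreement r was 0.81, and the probes called were 1328 in X11, 0 in X22 (2276 at an unadjusted p under 0.05) and 1 for family by environment, so that the only X22 call, C211R161, was lost. No result of the family, family by environment or C066R007 tests changed sides of the threshold with the block.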
